A study of Bos grunniens with 24 samples.

Results

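Among 639 rows that the authors of this study deposited for the jejunum of yak calves (Bos grunniens), 258 are transcribed loci without a gene identifier, placed outside the X and Y chromosomes. They were chosen by identifier and chromosome alone, as rows that the authors marked as newly assembled in the identifier and whose chromosome is neither X nor Y; a further 16 such rows on X and 1 on Y were left out. Each is written here as N and the number of its deposited identifier. Most of the other rows, 364, carry an Ensembl gene identifier. The table lists only rows that passed the authors' own test somewhere, so a change in some group is a condition for being listed and not a finding.

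Loci of this kind are assembled from reads that map outside the gene models of a reference genome. Some are exons or transcript ends that an annotation lacks, next to the gene they belong to. Others are long noncoding RNAs, or stretches of transposable elements such as LINE-1, a family that copies itself through RNA and a reverse transcriptase, and endogenous retroviruses, the remains of viral integrations in the germ line. Transposable elements exist in many similar copies, and individual insertions can be present in some animals and absent from others.

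The 24 libraries were made from total RNA of jejunal tissue, the middle stretch of the small intestine, with 8 libraries in each of 3 groups. CON calves were untreated controls, ETEC calves were challenged with enterotoxigenic Escherichia coli, a bacterium that causes diarrhoea through secreted toxins, and PET calves were given Pediococcus pentosaceus NQ0729, a lactic acid bacterium, and then challenged likewise. The labels give no dose, age, sex or batch and call the libraries replicate biosamples without naming animals, so p-values measure only the spread between these samples, which may be technical. The protocol text describes enrichment of small RNAs, although the table holds values per gene; the genome build of its coordinates is not given in the sources used here.

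Between 22640122 and 47301861 fragments were mapped per library, as the ratio of count to FPKM gives them. The listed loci took 9.57% to 24.8% of the counts in the table, and 211 to 247 of the 258 had at least 1 count in a library. The counts of 10 libraries (replicates 1 to 3 of CON and PET, replicates 1 to 4 of ETEC) could be closely rebuilt over the whole table by adding 2 others from their own group in fitted proportions; they are called close to a sum. Totals and the values of some loci are therefore also given for the 14 libraries that were not. Of the calls of loci named here, 134 of 135 did not pass over those 14 in edgeR, and 82 of 141 did not in DESeq2. A call given without such values is not said to hold there. Leaving out 1 library keeps any library close to a sum that includes it. The Y-linked gene USP9Y was without counts in ETEC-8, PET-8 and the whole CON group. The amino acid transporter SLC6A19 of the enterocyte brush border stood at 0.495 to 1.87 FPKM in 14 libraries (CON-4, CON-7, CON-8, all 8 ETEC, PET-3, PET-6 and PET-8) and at 28.1 to 132 FPKM in the other 10. The 5 brush border markers found in the table out of 13 looked for (ANPEP, ENPEP, MEP1A, SLC15A1 and SLC6A19) were each detected in at least 1 library, and their summed FPKM ran from 34.9 to 945 in CON. The sums were 31.0 to 55.1 across ETEC and 28.4 to 1905 across PET. Median FPKM of ANPEP was 332 in CON and 11.7 in ETEC, and that of ENPEP 30.4 and 2.61. The medians were 32.9 and 0.892 for SLC6A19, and 6.3 and 1.82 for MEP1A. For SLC15A1 they were 23.8 and 21.9, so this marker did not follow the others. Summed FPKM of the ileal enterocyte markers FABP6 and SLC10A2 peaked at 932 among CON libraries, 186 among PET libraries and 5.15 among ETEC libraries. FABP6 was highest in CON-5 within CON, at 849 FPKM, and in PET-5 within PET, at 51.3 FPKM. Markers fixed for goblet cells, Paneth cells, B cells and stroma were not among the rows of the table, so their levels were not analysed here.

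The loci were short and lowly expressed next to annotated genes. Their counted length, the part of each locus over which reads were counted, had a median of 882.5 bases (range 207 to 15719), against 1926 bases for the Ensembl rows. The counted length equalled the whole span in 111 loci, which are therefore single exons, and 106 of these carried no strand; their median was 469 bases. The other 147 had several exons, with a median counted length of 1565 bases in a span of 5281 bases. The shortest locus, N287 (chromosome 10, 44021459 to 44021665), spans 207 bases. Mean FPKM over the 24 libraries had a median of 1.48 in the 258 loci and 2.40 in the Ensembl rows, with 79 loci under 1 FPKM, 25 at 10 or more and 3 at 100 or more. They lay on 30 chromosomes or contigs, with most on chromosomes 29 (19 loci), 3 (17), 1 (14) and 12 (14).

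**Figure D1:**
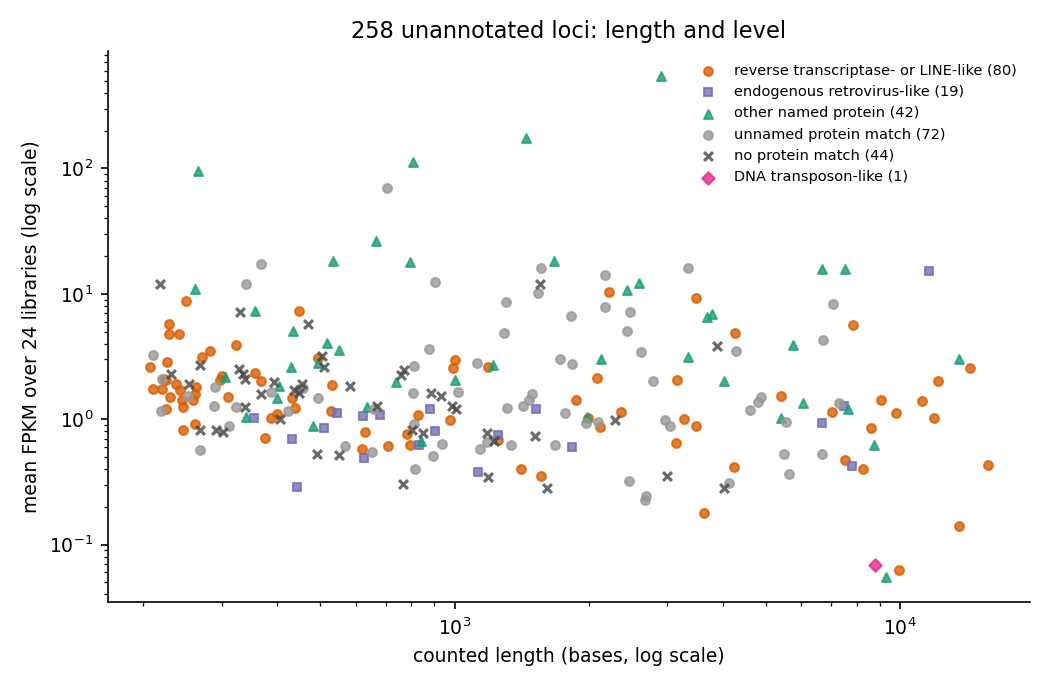
Counted length in bases (x axis, log scale) against mean FPKM over 24 libraries (y axis, log scale) for the 258 loci; symbols show the kind of protein match in the authors' table. Median counted length was 669.5 bases in LINE-like loci and 529.5 in loci without a match, against 882.5 in all 258. The 3 loci above 100 FPKM all have a named protein match.

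Protein matches in the authors' table sorted the loci by keyword. The largest kind, 80 loci, matched reverse transcriptase or LINE proteins, and 50 of these were single exons. A further 19 matched endogenous retrovirus proteins such as Gag, Pol and Env, 16 of them single exons, and 1 matched SETMAR, a gene fused to a transposase. Another 42 matched a named host protein, 72 matched only unnamed predicted proteins and 44 had no match. LINE-like, retroviral and other repeated loci have near-identical copies elsewhere in the genome; how reads that fit several copies were counted is not given in the sources used here, so their counts are uncertain in origin.

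Of the 6 most abundant loci, N2654, N2419 and N4689 matched secreted proteins, N3372 had an unnamed match, and the NAALADL1-like N3252 and the ABCC4-like N1025 are described with their kinds. The DMBT1-like locus N2654 (chromosome 25, 46257628 to 46281217), which matches a secreted scavenger receptor that binds bacteria at mucosal surfaces, ranged from 136 through a median of 372 to 648 FPKM in CON, from 519 through 827 to 1010 in ETEC and from 64.8 through 348 to 1191 in PET. It rose in ETEC against CON by a log2 fold change of 1.24 ± 0.46 (SE), with edgeR adjusted p = 0.0208, while the other 2 comparisons did not pass. Over the 14 libraries this rise did not pass (edgeR adjusted p = 0.226, DESeq2 adjusted p = 0.197). All 3 groups overlapped, and PET reached both below CON and above ETEC. The selenoprotein P-like locus N2419 (chromosome 23, 51895283 to 51897770), matching the carrier of selenium in plasma, had 141 through 173 to 213 FPKM in CON, 93.4 through 120 to 127 in ETEC and 109 through 153 to 479 in PET. It was higher in PET than in ETEC (log2 fold change 1.05, edgeR adjusted p = 0.00633); this call was lost with TMM scaling (0.25, adjusted p = 0.322) and with DESeq2 size factors in edgeR (0.50, adjusted p = 0.0693). PET-1, PET-4 and PET-5 held the 3 highest values, 366 to 479 FPKM. The Ig mu-like locus N4689 (chromosome 9, 79084735 to 79084999), matching the constant region of secreted IgM, fell in PET against CON by 1.22 on the log2 scale (edgeR adjusted p = 0.0043) and against ETEC by 0.91 (adjusted p = 0.019). It read 59.5 through 109 to 246 FPKM in CON, 76.5 through 109 to 124 in ETEC and 37.1 through 50.4 to 89.6 in PET. The locus N3372 (chromosome 3, 678871 to 680177), with an unnamed match, fell in ETEC (log2 fold change -1.17, edgeR adjusted p = 0.00171) and was higher in PET than ETEC (1.07, adjusted p = 0.00448). Its CON values, 71.4 to 136 FPKM, lay wholly above its ETEC values, 35.1 to 46.4; with TMM scaling neither call passed (-0.53 with adjusted p = 0.142, and 0.59 with adjusted p = 0.151), nor did the second with DESeq2 size factors in edgeR (0.74, adjusted p = 0.0536).

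The first comparison sets challenged calves against untreated ones. USP9Y had no counts in CON, but had counts in all ETEC libraries except ETEC-8 and all PET libraries except PET-8. Challenge and this difference therefore cannot be told apart in either comparison with CON. Of the 220 loci with enough counts to test, 84 rose and 72 fell in ETEC against CON, which is 70.9% called, the same as the 70.9% of all 577 rows tested. Over all rows 29.6% rose and 41.2% fell. The median log2 fold change was 0.01 in the loci and -0.63 over all rows. TMM scaling, which assumes that most rows do not change, raised all log2 fold changes by a median of 0.61 and gave 100 higher and 33 lower loci, so the balance of rises and falls rests on the scaling. LINE-like loci gave 35 rises and 24 falls among 71 tested, with a median log2 fold change of 0.85. Loci with a named host protein gave 18 rises and 12 falls among 42, and endogenous retrovirus-like loci 3 of each among 13. FPKM ranges of the groups did not overlap for 18 loci higher and 15 lower in ETEC, next to 6.1% and 5.16% of all rows.

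The second comparison asks what pretreatment changed in challenged calves. Of the 220 loci, 61 were higher and 25 lower in PET than in ETEC, 39.1% in all against 47% of all rows. The median log2 fold change was 0.14 in the loci and 0.45 over all rows. TMM scaling lowered the values by a median of 0.62 (shift -0.62) and gave 24 higher and 36 lower loci. Over all rows 35.9% were higher and 11.1% lower. Loci with an unnamed match gave 25 rises and 5 falls among 60 tested. The ranges of PET and ETEC did not overlap for 1 locus higher and 3 lower in PET, next to 0.782% and 1.72% of all rows.

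The third comparison sets pretreated and challenged calves against untreated ones. Here 79 loci were higher and 40 lower in PET than in CON, 54.1% of those tested, next to 41.4% of all rows, with median log2 fold changes of 0.71 and 0.41. Over all rows 26.2% were higher and 15.3% lower. Endogenous retrovirus-like loci gave 8 lower and 2 higher among 13 tested. LINE-like loci gave 30 higher and 13 lower among 71. Ranges did not overlap for 7 loci higher and 6 lower, next to 1.88% and 2.03% of all rows. The 3 comparisons share libraries, so their calls are not independent: the most common combinations were 64 loci higher in ETEC and PET than in CON with no call between the challenged groups, and 39 loci lower in ETEC than in both other groups with no call between those. Over all 577 rows tested these patterns held 100 and 135 rows.

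When the 10 sum-like libraries were left out, edgeR calls dropped to 0, 0 and 2 loci in ETEC vs CON, PET vs ETEC and PET vs CON, while 79, 51 and 83 had an unadjusted p under 0.05. DESeq2 on the remaining 14 libraries called 43, 27 and 50. The calls given here therefore rest on treating 8 libraries per group as independent samples.

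**Figure D2:**
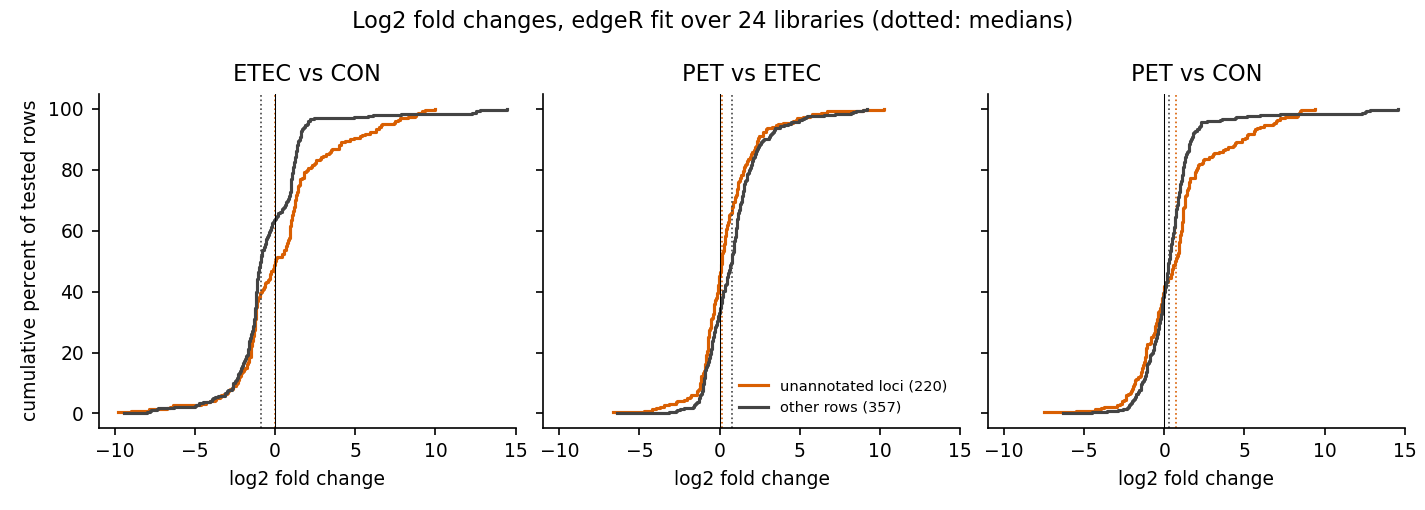
Cumulative percent of tested rows (y axis) by log2 fold change (x axis) in each comparison, for the 220 unannotated loci and the 357 other rows tested; dotted lines mark medians. In ETEC vs CON the median of the loci sits at 0.01 and that of the other rows at -0.90.

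Loci that fell in ETEC included a run matching the aminopeptidase NAALADL1, a peptidase of the small intestinal epithelium. Runs of loci under 50 kb apart numbered 25, and 23 of them held only 2 loci. The largest run, 7 loci over 29.5 kb of chromosome 29 (9030768 to 9060295), held 3 NAALADL1-like loci (N3249, N3251 and N3252), a SAC3D1-like and an SNX15-like locus (N3253 and N3254) and 2 LINE-like ones (N3250 and N3256). In N3252 the FPKM ranged from 1.82 through a median of 153 to 529 in CON, from 1.37 through 1.98 to 2.35 in ETEC and from 1.6 through 35.6 to 994 in PET. In CON, 3 libraries (CON-4, CON-7 and CON-8) were low, at 1.82 to 2.02 FPKM, within the ETEC range. PET-3, PET-6 and PET-8 were likewise low, at 1.6 to 2.31 FPKM, and PET-5 held the highest value. These 6 libraries and the 8 ETEC libraries are the 14 in which SLC6A19 stood under 2 FPKM. The brush border marker SLC15A1 differed little between CON and ETEC, with medians of 23.8 and 21.9 FPKM. The part of brush border content in the difference in N3252 was not tested. In bulk tissue, fewer cells of a type and less RNA per cell cannot be told apart.

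All 7 loci of the run fell in ETEC against CON, with log2 fold changes from -9.78 for N3249 to -2.65 for N3256 and edgeR adjusted p between 0.000514 and 0.00904. Those matching NAALADL1 fell most, with log2 fold changes of -9.78, -9.00 and -6.52, and the SAC3D1-like and SNX15-like loci had -3.20 and -2.95. All 7 were higher in PET than ETEC, by 10.22 in N3249 down to 1.52 in N3256, with edgeR adjusted p of 0.00135 to 0.0466. Without PET-5 the values for N3249, N3251 and N3252 were 7.25, 6.79 and 4.32 and still passed. Without PET-5 the values for N3250, N3253, N3254 and N3256 were 1.16, 1.32, 0.56 and 0.50 and no longer passed (adjusted p = 0.334, 0.0754, 0.451 and 0.469). That call of N3254 was also lost without any 1 ETEC library but ETEC-6 and ETEC-8 (adjusted p of 0.0530 to 0.0716), and that of N3256 without CON-2, CON-3, PET-1, PET-2 or any 1 ETEC library (adjusted p of 0.0503 to 0.0767). With TMM scaling N3254 and N3256 gave 0.74 and 0.60 (adjusted p = 0.304 and 0.369). With DESeq2 and its own size factors they gave 0.94 and 0.81 (adjusted p = 0.169 and 0.207). In that setting N3250 gave 2.08 (adjusted p = 0.063), so these calls were lost there too. Without CON-5, N3249 gave -9.16 in ETEC vs CON. In none of the 7 did PET differ from CON by the test. Over the 14 libraries N3252 gave -6.13 in ETEC vs CON with edgeR adjusted p = 0.151, and DESeq2 gave adjusted p = 0.00157.

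Loci beside listed genes mostly changed in the same direction as those genes. Both partners are rows that the authors called at least once, so unchanged neighbours cannot appear and a nearer gene may be unlisted. How often other pairs of rows share a sign was not tested. In all, 30 loci lay within 5 kb of an Ensembl row of the table, and none overlapped one; 15 faced the gene tail to tail, 7 pointed away from it, 6 shared its strand and 2 had no strand. For 29 of them both the locus and the gene were tested, and the log2 fold changes had the same sign in 29, 26 and 26 pairs in ETEC vs CON, PET vs ETEC and PET vs CON. Both passed the test in 21, 16 and 6 pairs, always with the same sign. The strand setting of the counting is not stated, so reads of a gene and of a locus on the other strand cannot be told apart at their ends.

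The locus N1338 (chromosome 17, 21810872 to 21811306, plus strand) matched aminopeptidase N and lay 1037 bases from ANPEP, the gene of that brush border peptidase, on the opposite strand. It read 0.0845 through 5.15 to 12.1 FPKM in CON, 0.125 through 0.266 to 0.43 in ETEC and 0 through 5.94 to 25.8 in PET. CON-4, CON-7 and CON-8 lay at or under the highest ETEC value, as did PET-3, PET-6 and PET-8. Its log2 fold change was -4.34 ± 1.13 (SE) in ETEC vs CON and 5.23 ± 1.17 in PET vs ETEC (edgeR adjusted p = 0.00355 and 0.00224), beside -4.74 and 5.42 for ANPEP. Over the 14 libraries the first value was -3.90, with adjusted p = 0.182. The locus N4121 (chromosome 6, 79515625 to 79518104) ended 422 bases from the phosphate transporter gene SLC34A2. It ranged from 0.117 through 16.4 to 35.3 FPKM in CON, from 0.1 through 0.739 to 3.7 in ETEC and from 0.0208 through 36.1 to 61.9 in PET. Its log2 fold changes of -3.76 and 4.76 (edgeR adjusted p = 0.00993 and 0.00489) stood beside -3.55 and 4.46 for SLC34A2. Only 42 bases from SLC1A1, a glutamate transporter gene, N4279 (chromosome 7, 80592389 to 80595024) gave -2.45 and 2.88 beside -2.26 and 2.62.

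Neighbouring loci that went up in ETEC were fewer, 7 of the 23 called. The locus N2857 (chromosome 27, 46648389 to 46650209), 396 bases from TMEM72, had 0.6 through 1.62 to 2.7 FPKM in CON, 2.69 through 3.56 to 4.42 in ETEC and 0.767 through 2.51 to 3.21 in PET. It rose in ETEC by a log2 fold change of 1.24 (edgeR adjusted p = 0.00258), beside 1.15 in TMEM72, and the CON and ETEC ranges touched at their ends. The locus N2279 lay 5 bases from SLC38A3, a glutamine transporter gene, and rose by 1.82 in ETEC (edgeR adjusted p = 0.0426), beside 1.57 for SLC38A3, which did not pass. That call was lost without any 1 of ETEC-1, ETEC-3, ETEC-4, ETEC-5, ETEC-6, ETEC-8, CON-1, CON-2, CON-3, CON-5 or CON-6, with adjusted p of 0.0517 to 0.0751. Next to SLC13A2, a dicarboxylate transporter gene, N1676 was 3 bases away, with a log2 fold change of 0.95 that did not pass (edgeR adjusted p = 0.0884), beside 1.53 in the gene, which did.

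**Figure D3:**
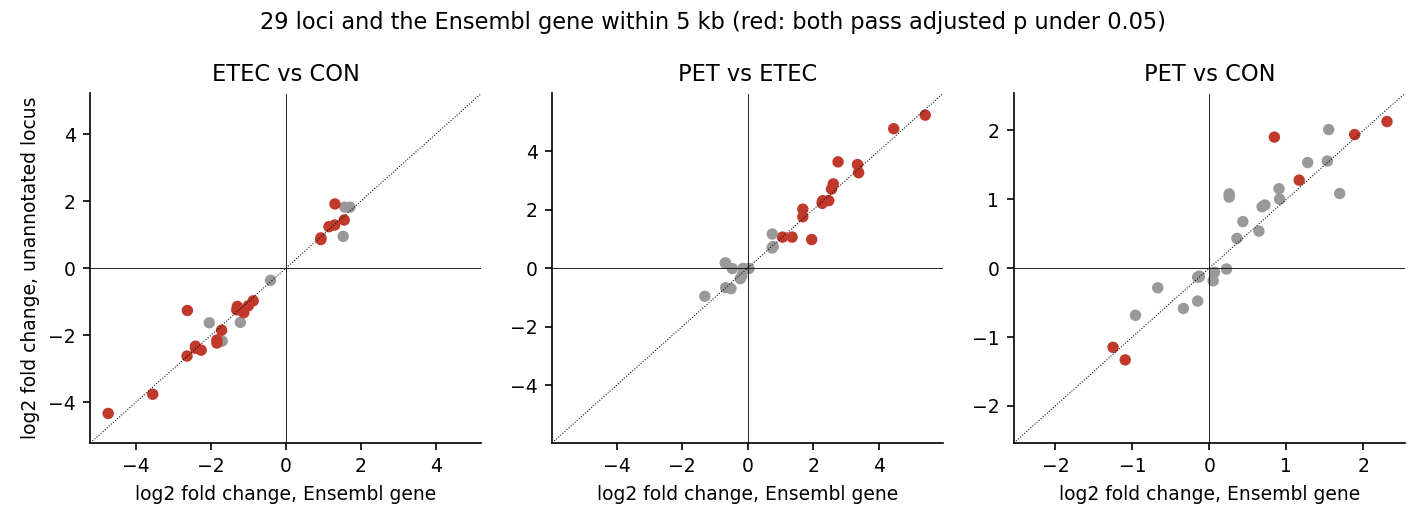
Log2 fold change of each unannotated locus (y axis) against that of the Ensembl gene within 5 kb (x axis) for 29 loci beside 26 genes, one panel per comparison; red points passed the test in both. Points follow the dotted line of equal change, and in ETEC vs CON all 29 pairs have the same sign.

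The other large run matched cubilin, the receptor that takes up intrinsic factor with vitamin B12. It held 5 loci on the minus strand of chromosome 12 (21922875 to 22072019, 149 kb), N577 to N581, with a cubilin-like locus N584 further along (22188817 to 22202717). Mean FPKM in CON went down along the run from 3.55 in N577 to 0.64 in N581. In N577 the FPKM was 0.751 through 3.34 to 6.64 in CON, 5.77 through 8.9 to 10.7 in ETEC and 1.96 through 9.22 to 18.4 in PET. All 6 cubilin-like loci rose in ETEC, by log2 fold changes of 0.96 to 1.49 with edgeR adjusted p of 0.00375 to 0.0426, and all 6 were higher in PET than CON, by 1.18 to 1.42 with adjusted p of 0.0109 to 0.0295. Over the 14 libraries none of the 6 passed in either comparison (edgeR adjusted p of 0.159 to 0.534, DESeq2 adjusted p of 0.102 to 0.548). The 6 loci lie in line on 1 strand with matches to 1 protein, so they may not be separate transcripts, and they are not 6 independent results. PET fell into high libraries (PET-1, PET-3, PET-4, PET-5 and PET-8, 7.00 to 18.4 FPKM in N577) and low ones (PET-2, PET-6 and PET-7, 1.96 to 2.35).

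Some of these calls rest on single libraries. In ETEC vs CON, N581 lost its call without any 1 of 12 libraries (all but CON-4, CON-7, ETEC-5 and ETEC-7 of the 16), with adjusted p of 0.0554 to 0.0744, and N584 without CON-6 or CON-8 (adjusted p = 0.0526 and 0.0503). In PET vs CON, N577 lost it without CON-1, CON-5, PET-1 or PET-4, N578 without PET-4 and N581 without PET-1 or PET-4 (adjusted p of 0.0520 to 0.0754 over these). N577 also lost it with TMM scaling (1.07, adjusted p = 0.0571) and DESeq2 size factors in edgeR (1.11, adjusted p = 0.0536), and N577, N578 and N581 did when only the groups compared were fitted (adjusted p = 0.0894, 0.0791 and 0.06). The other 23 runs share 1 size, so none of them is the third largest.

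Close by on chromosome 12, the ST8SIA6-like locus N589 (22416409 to 22589082), which matches a sialyltransferase, and the LINE-like N588 (22399247 to 22411410) changed in the same directions, N588 by log2 fold changes of 2.41 in ETEC and 2.43 in PET against CON (edgeR adjusted p = 0.0051 and 0.00694). The longest span of all, 172674 bases, belonged to N589. Its FPKM was 0.0734 through 0.566 to 1.68 in CON, 1.37 through 5.06 to 9.54 in ETEC and 0.0735 through 6.2 to 10.7 in PET. It rose by a log2 fold change of 2.81 ± 0.67 (SE) in ETEC and was higher by 2.96 ± 0.67 in PET than CON (edgeR adjusted p = 0.00188 and 0.00191). PET-8, at 0.0735 FPKM, was at the bottom of the CON range, while the other PET libraries lay above all CON libraries. Over the 14 libraries the values were 3.13 and 3.30 (edgeR adjusted p = 0.135 and 0.0937; DESeq2 adjusted p = 0.017 and 0.00689).

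Other loci with a named match switched between libraries of a group. The complement factor H-like N1018 (chromosome 14, 88444521 to 88446318), matching an inhibitor of complement, was at 0.431 through 11.8 to 21.8 FPKM in CON, 0 through 0.0824 to 0.191 in ETEC and 0 through 6.73 to 26.7 in PET. In ETEC the level fell by 6.74 on the log2 scale, and in PET it exceeded ETEC by 6.70 (edgeR adjusted p = 0.000516 and 0.00135). CON lay wholly above ETEC. Libraries CON-1, CON-2, CON-3, CON-6, PET-1 and PET-4 were high both here and in N3252. CON-7, PET-3 and PET-8 were high here, at 21.8, 13.2 and 22.6 FPKM, and low in N3252. CON-5 and PET-5 were low here, at 0.973 and 0, and the highest of their groups in N3252. PET-2 and PET-7 were also low here, at 0.0866 and 0.213 FPKM, against 32.8 and 38.4 in N3252. Over the 14 libraries the ETEC vs CON value was -7.31 (edgeR adjusted p = 0.125; DESeq2 adjusted p = 0.0016).

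The cyclin-G1-like N2799 (chromosome 26, 47938930 to 47941974), matching a p53-induced regulator, read 0.229 through 0.403 to 1.19 FPKM in CON, 0.171 through 10.5 to 15 in ETEC and 0.197 through 0.321 to 0.435 in PET. ETEC-1, ETEC-2, ETEC-3, ETEC-5 and ETEC-6 stood at 9.39 to 15 FPKM, while ETEC-4, ETEC-7 and ETEC-8 stood at 0.171 to 0.369, within the CON range or under it. The log2 fold change was 4.11 ± 0.74 (SE) in ETEC vs CON and -4.71 ± 0.76 in PET vs ETEC (edgeR adjusted p = 0.000215 and 0.000378). Of the high libraries, ETEC-1, ETEC-2 and ETEC-3 are close to sums that include ETEC-5 or ETEC-6. Over the 14 libraries the values were 3.83 and -4.58 (edgeR adjusted p = 0.0531 and 0.141, DESeq2 adjusted p = 0.00112 and 8.33e-05). A single-exon locus on chromosome 1 without a protein match, N177 (134950826 to 134951294), was high in the same 5 libraries, at 303 to 553 counts, and had 0 to 6 counts in the other 19. It did not pass the filter on low counts and has no test.

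On chromosome 27, 3 MARK-like loci, matching kinases that act on microtubule-binding proteins, shared their high libraries. They were N2807, N2859 and N2861 (709953 to 710791, 47990784 to 47991520 and 48154575 to 48161384), and N2858, whose match is an interleukin-1 receptor accessory-like protein, lies beside the second. In N2861 the FPKM was 0.0231 through 0.29 to 0.583 in CON, 0.0353 through 0.155 to 12.4 in ETEC and 0.0342 through 6.44 to 13.5 in PET. The high libraries were ETEC-1, ETEC-2 and ETEC-5 and PET-1, PET-2, PET-4, PET-5 and PET-7, at 5.64 to 13.5 FPKM, and the other 16 held at most 0.583. All 4 loci were higher in ETEC and in PET than CON, by log2 fold changes of 3.36 to 4.01 and 4.31 to 4.82, with edgeR adjusted p of 0.0112 to 0.0299 and 0.00704 to 0.021. Without ETEC-5, the ETEC vs CON values were 2.57, 2.82, 3.29 and 2.82 for N2807, N2858, N2859 and N2861, and the first 2 no longer passed (adjusted p = 0.0829 and 0.0704). The same 2 calls were lost without CON-5 (adjusted p = 0.0503 and 0.0516), and that of N2858 without ETEC-2 (adjusted p = 0.0504). Of the high ETEC libraries, ETEC-1 and ETEC-2 are close to sums that include ETEC-5. Over the 14 libraries none of the 4 loci passed in ETEC vs CON (edgeR adjusted p of 0.186 to 0.224, DESeq2 adjusted p of 0.0811 to 0.241). In PET vs CON none passed there in edgeR (adjusted p of 0.134 to 0.177). DESeq2 passed only N2859 and N2861 there (adjusted p = 0.032 and 0.0176).

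Matches to ABCC4, an export pump for organic anions and cyclic nucleotides, occurred at 3 loci of chromosome 15. They differed in direction: N1025 (1373431 to 1384033) rose in ETEC by 1.44 and N1172 (85289077 to 85311041) by 4.09, whereas N1042 (3138940 to 3156921) fell, with a log2 fold change of -1.20 (edgeR adjusted p = 0.0161, 0.00816 and 0.0224). The FPKM of N1025 was 2.02 through 11.5 to 17.6 in CON, 16.9 through 27.6 to 34.1 in ETEC and 3.76 through 39.9 to 101 in PET. The fall of N1042 did not pass with TMM scaling (-0.52, adjusted p = 0.303) or without CON-5 (-0.93, adjusted p = 0.0668). Nor did it pass with DESeq2 and its own size factors (-0.72, adjusted p = 0.113). PET exceeded CON by 2.13 in N1025 and 3.42 in N1172 (edgeR adjusted p = 0.00283 and 0.0252), the latter not without PET-1 (2.84, adjusted p = 0.0615) or PET-4 (2.62, adjusted p = 0.0747), nor with only the groups compared (3.42, adjusted p = 0.0538).

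**Figure D4:**
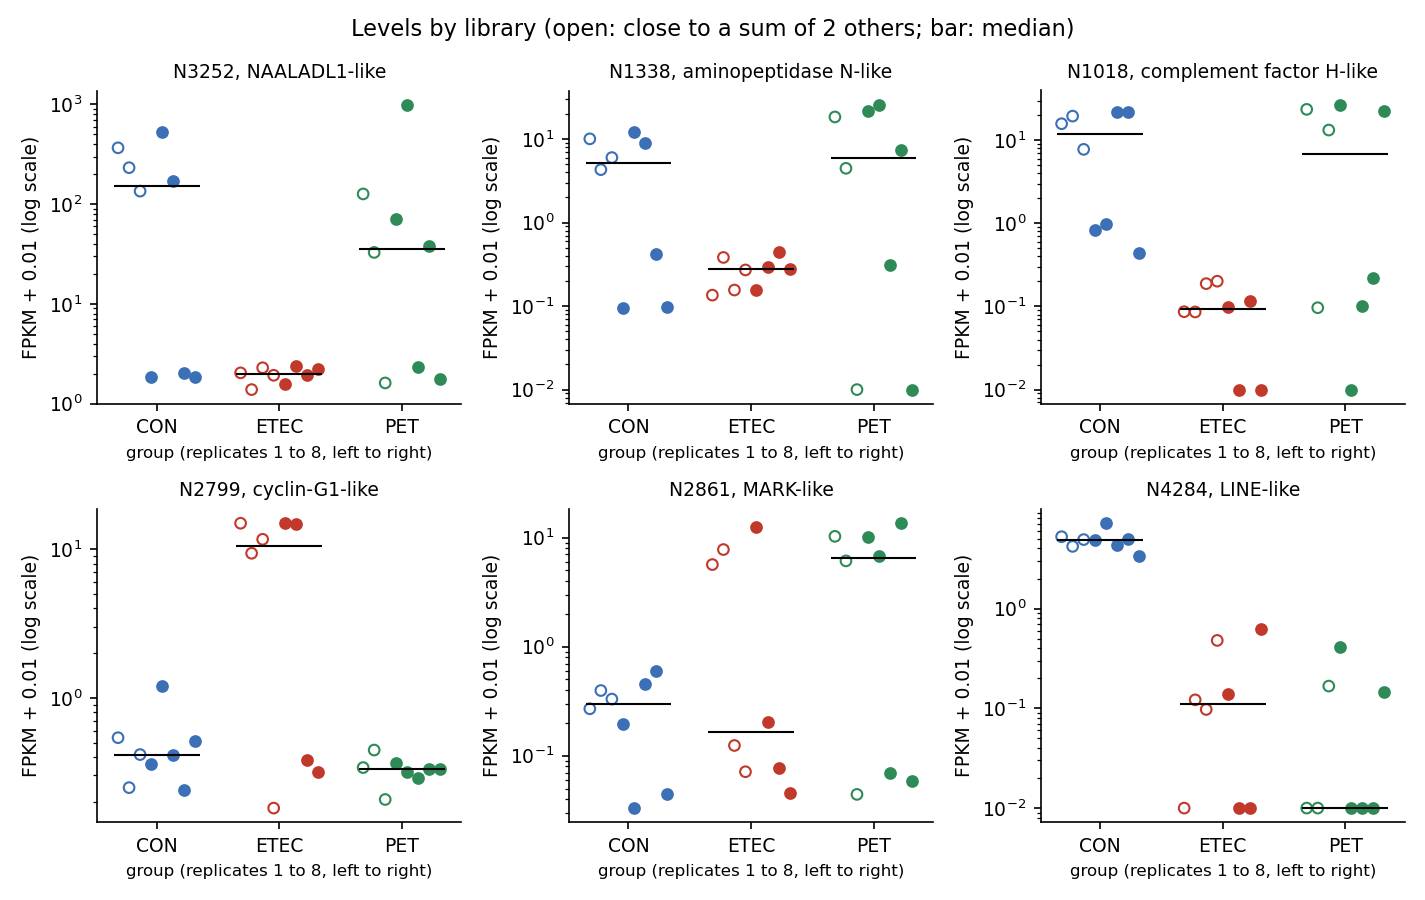
FPKM plus 0.01 (y axis, log scale) of 6 loci in every library by group, replicates 1 to 8 from left to right; filled points are the 14 libraries not close to a sum, open points the other 10, and bars are medians. In N3252, N1338 and N1018 the CON and PET libraries fall into high and low sets while ETEC is low throughout; N4284 separates CON from both challenged groups.

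Against CON, 2 further host-like loci fell in both challenged groups. The CACNB2-like N599 (chromosome 12, 23767819 to 23789267), matching a calcium channel subunit, was at 0.864 through 0.977 to 1.06 FPKM in CON, 0.351 through 0.495 to 0.58 in ETEC and 0.279 through 0.326 to 0.605 in PET. CON lay above both challenged groups without overlap, and those overlapped each other. Its log2 fold changes were -0.96 ± 0.21 (SE) in ETEC and -1.30 ± 0.22 in PET against CON (edgeR adjusted p = 0.00127 and 0.000115). The first did not pass with TMM scaling (-0.38, adjusted p = 0.28) or DESeq2 size factors in edgeR (-0.57, adjusted p = 0.0854). Nor did the first pass with DESeq2 and its own size factors (-0.57, adjusted p = 0.0614). The second was -1.47 over the 14 libraries (edgeR adjusted p = 0.0583, DESeq2 adjusted p = 6.28e-05). The IFITM1-like N2941 (chromosome 29, 128933 to 139708), matching an interferon-induced membrane protein, had 7.69 through 22.2 to 32.8 FPKM in CON, 3.41 through 7.72 to 15.9 in ETEC and 2.96 through 5.27 to 11.7 in PET. It fell by 1.32 and 1.85 on the log2 scale in ETEC and PET (edgeR adjusted p = 0.00463 and 0.000551), and its group ranges overlapped; with TMM scaling the first was -0.84 and did not pass (adjusted p = 0.107).

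Both TRPM5-like loci, N3025 and N3026 (chromosome 29, 2250388 to 2256222 and 2256388 to 2257025), match a cation channel of taste and tuft cells and lie next to each other on 1 strand. In N3025 the FPKM was 2.21 through 3.1 to 3.93 in CON, 1.2 through 1.86 to 4.34 in ETEC and 2.55 through 5.39 to 7.9 in PET. PET exceeded ETEC by log2 fold changes of 1.09 and 0.99 (edgeR adjusted p = 0.00744 and 0.0115), and CON by 0.82 and 0.91 (adjusted p = 0.0351 and 0.021). With TMM scaling none of these 4 calls passed (0.47, 0.39, 0.76 and 0.87, adjusted p = 0.247, 0.391, 0.0565 and 0.053). Neither PET vs ETEC call passed with DESeq2 and its own size factors (0.71 and 0.63, adjusted p = 0.0549 and 0.14). Over the 14 libraries none of the 4 passed (edgeR adjusted p of 0.157 to 0.304, DESeq2 adjusted p of 0.0923 to 0.301). The PET vs CON call of N3025 was also lost without CON-3, CON-4, CON-5, PET-1, PET-4 or PET-7 (adjusted p of 0.0551 to 0.0751). The secretin-like N2959 (chromosome 29, 507097 to 508009), matching the hormone that drives pancreatic bicarbonate, rose in ETEC by 1.82 (edgeR adjusted p = 0.0214), from 0.377 through 0.768 to 2.64 FPKM in CON to 1.44 through 3.11 to 5.18. Of loci matching antigen receptor variable segments, the Ig heavy chain-like N362 was lower in PET than CON by a log2 fold change of -1.36 (edgeR adjusted p = 0.0131), and the T cell receptor alpha-like N361 was higher in PET than ETEC by 1.50 (adjusted p = 0.0149), a call lost without PET-1 or PET-4 (adjusted p = 0.0512 and 0.0613). It was also lost with TMM scaling (0.58, adjusted p = 0.219) and DESeq2 size factors in edgeR (0.87, adjusted p = 0.0761). The same call was lost with DESeq2 and its own size factors (0.87, adjusted p = 0.063).

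Many retroelement-like loci were either on or off in a library. In all, 156 of the 258 loci had counts in every library and 102 had none in at least 1. In 11 loci no CON library had a count, against 2 loci for ETEC and 1 for PET; among the other rows of the table the numbers were 7, 0 and 0. With at least 10 counts taken as on and at most 1 count as off, 25 loci were clearly on or off in each of the 14 libraries not close to a sum; 19 of them are single exons and 23 were off in all 5 CON libraries among the 14. Another 13 rows of the table, 6 of them on Y, also had such a pattern. Here only the counts are described, and no test was made.

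The largest set with 1 pattern held 9 LINE-like loci on 8 chromosomes, all 211 to 310 bases of counted length: N8, N1114, N1273, N1515, N2393, N2762, N2827, N4621 and N4658. They were on only in ETEC-5, ETEC-6, PET-5 and PET-6 of the 14 libraries. In N4658 (chromosome 9, 63641188 to 63641416) the counts in those 4 libraries were 139, 161, 104 and 125, with 0 in all the other 10. In N1515 (chromosome 18, 55152662 to 55171693) they were 120, 124, 88 and 108, with at most 1 in the other 10. The share of each locus in the counts of the set differed by 1.08 to 1.66 times between the 4 libraries, so proportions varied little between them. No CON library had more than 1 count in any of the 9.

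A second set of 5 loci on 5 chromosomes was on in ETEC-5 to ETEC-8, PET-4, PET-6 and PET-7: N248, N1875, N3339, N3893 and N4508, all with reverse transcriptase or LINE matches. In N3893 (chromosome 5, 90339417 to 90339666) the FPKM was 0 in every CON library, 6.66 through 16 to 26.3 in ETEC and 0 through 8.54 to 22.8 in PET. Against a floor of 3 counts per library, its ETEC mean was at least 35.8-fold higher than CON and its PET mean at least 24.3-fold higher. For N248 the bounds were 16.7 and 13.1, for N3339 15.3 and 11.3, and for N1875 10.9 and 6.58. In N4508 (chromosome 8, 93987982 to 94017545) CON-1 and CON-2 had 1 count each, and the ETEC libraries had 97 to 425. All 5 were at 0 counts in PET-5 and PET-8. USP9Y was on or off together with the 5 loci in every library but PET-5, where it had 5281 counts, and ETEC-8, where it had 0 and the 5 loci had 22 to 182 counts; its part in the pattern was not tested. The proportions within this set differed by 1.45 to 5.09 times between libraries. The LINE-like N3439 (chromosome 3, 31719468 to 31719704) followed the same libraries, with 6 counts in ETEC-5, and its ETEC and PET means exceeded CON by at least 7.18-fold and 5.19-fold. A TMCO5B-like locus, N986 (chromosome 14, 75766648 to 75767741), was at 0 FPKM in all CON libraries but CON-6 (0.114), at 0.462 to 3.41 in ETEC, and at 0 in PET-5 and PET-8.

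**Figure D5:**
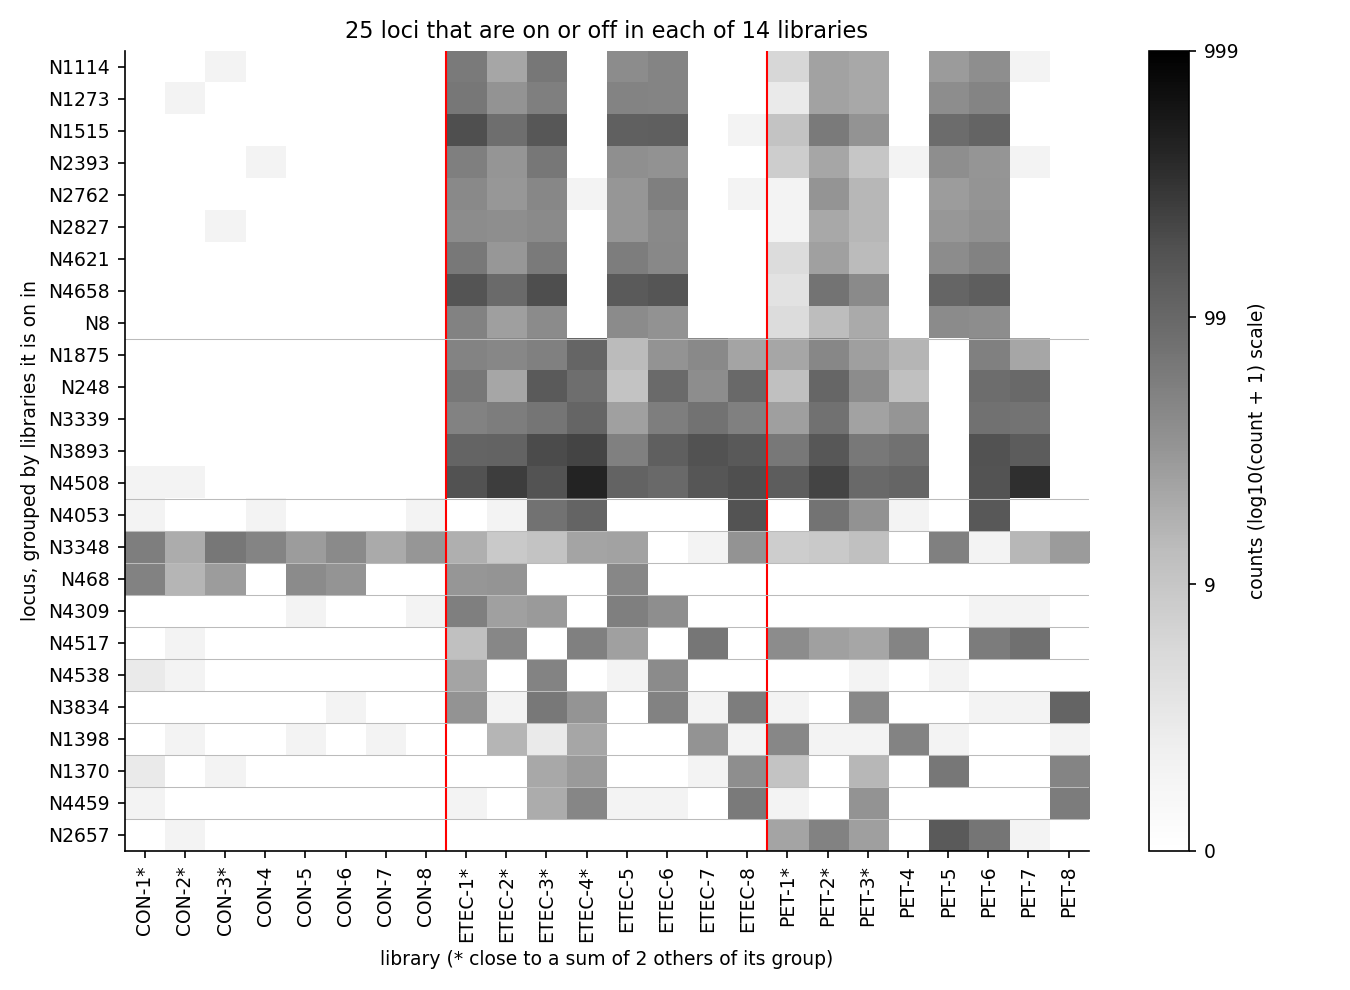
Counts (shade, log10 of count plus 1) of 25 loci (rows) that were on or off in each of the 14 libraries not close to a sum, in all 24 libraries (columns; asterisks mark libraries close to a sum of 2 others; red lines separate CON, ETEC and PET). The upper 9 rows share 1 pattern and the next 5 rows another, and 23 of the 25 rows are off in the CON libraries without an asterisk.

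The 10 libraries close to a sum carried the loci of both libraries they resemble. In none of the 10 was a locus on while off in both of those libraries. Where a locus was on in just 1 of the pair, the sum-like library had a count of it in 9 of 9 loci for CON-1, 18 of 19 for CON-2, 16 of 16 for CON-3, 17 of 17, 28 of 28, 23 of 23 and 15 of 15 for ETEC-1 to ETEC-4, and 34 of 34, 36 of 36 and 36 of 37 for PET-1 to PET-3. For example, ETEC-3 had 191 counts of N4658, which was on in ETEC-6 (161) and at 0 in ETEC-8.

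Other patterns were carried by single loci. The LINE-like N4517 (chromosome 8, 105545205 to 105561407) was on in ETEC-5, ETEC-7, PET-4, PET-6 and PET-7 of the 14 libraries. The LINE-like N468 (chromosome 11, 84547248 to 84548409) was off in all PET libraries and on in CON-5, CON-6 and ETEC-5 of the 14, and its mean was at least 7.35-fold lower in PET than in CON on a floor of 3 counts per library. Its FPKM was 0 through 1.09 to 2.48 in CON and 0 through 0 to 2.28 in ETEC. A locus with an unnamed match, N2657, had at most 1 count in a CON library, no count in any ETEC library and 0 to 142 counts in PET. In N3546, without a match, the counts were 1 to 65 in CON, 0 in ETEC and 0 to 2 in PET.

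The LINE-like N4284 (chromosome 7, 87574860 to 87575101) differed between untreated and challenged calves without overlap. All 8 CON libraries held it, at 3.33 through 4.88 to 7.15 FPKM, against 0 through 0.0995 to 0.608 in ETEC and 0 through 0 to 0.402 in PET. Its log2 fold change was -4.63 ± 0.68 (SE) in ETEC and -5.49 ± 0.74 in PET against CON (edgeR adjusted p = 3.36e-05 and 1.95e-05). Over the 14 libraries it was -4.57 and -5.20 (edgeR adjusted p = 0.0531 and 0.0483), and without PET-4 the PET value was -6.47. Among LINE-like loci high in some CON libraries, N1874 (chromosome 2, 80539951 to 80548524) fell in ETEC by 6.38 on the log2 scale and was 5.65 higher in PET than ETEC (edgeR adjusted p = 0.000458 and 0.0018). It was low in the same 6 CON and PET libraries as N3252. In N2260 (chromosome 22, 4249247 to 4249585), without a match, those 6 libraries were at 0, and it read 0 through 5.26 to 12.3 FPKM in CON, while ETEC stayed at or under 0.0926. Its ETEC vs CON value was -7.86 (edgeR adjusted p = 0.000532), and -8.79 without ETEC-5. In PET vs ETEC it gave 5.78, which was 4.24 without PET-5 and 6.71 without ETEC-5.

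LINE-like loci that rose included an overlapping pair on opposite strands of chromosome 24, N2455 (6459541 to 6465839) and N2456 (6459256 to 6462823). In N2455 the FPKM was 0.0345 through 0.0585 to 0.28 in CON, 0.0295 through 4.54 to 17.7 in ETEC and 0 through 6.5 to 24.7 in PET. Log2 fold changes against CON were 5.91 in ETEC and 6.24 in PET (edgeR adjusted p = 0.000764 and 0.00062), and 4.92 and 4.87 in N2456, where leaving out PET-8 gave 4.25. Since the strand setting of the counting is not stated, reads of these loci cannot be told apart where they overlap. The locus N3754 (chromosome 5, 4803706 to 4811237) rose in ETEC by 3.41 and was lower in PET than ETEC, at -3.15 (edgeR adjusted p = 0.000297 and 0.00135). Its FPKM was 0.0191 through 0.0949 to 0.229 in CON, 0.149 through 1.25 to 2.29 in ETEC and 0.0392 through 0.0842 to 0.367 in PET. In N3957 (chromosome 5, 122937458 to 122938823), without a match, both challenged groups exceeded CON, by 4.69 and 5.14 (edgeR adjusted p = 0.00023 and 0.000134), the first being 4.09 without ETEC-5. The shortest locus, N287, was 1.58 higher in ETEC than CON (edgeR adjusted p = 0.0432), a call lost without any 1 of CON-1, CON-5, CON-6, CON-7, CON-8, ETEC-1, ETEC-3, ETEC-4 or ETEC-8 (adjusted p of 0.0510 to 0.0812).

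Among the 19 endogenous retrovirus-like loci, 13 were tested: 8 were lower and 2 higher in PET than CON, and 4 lower and 1 higher in PET than ETEC. Over all rows tested, 15.3% were lower and 26.2% higher in PET than CON. Against ETEC, 11.1% were lower and 35.9% higher in PET. The Env-like N7 (chromosome 1, 9253002 to 9254524) read 0.0965 through 1.94 to 5.03 FPKM in CON, 0 through 0.175 to 5.1 in ETEC and 0.016 through 0.0937 to 0.373 in PET. High values stood in CON-1, CON-2, CON-3, CON-5, CON-6, ETEC-1, ETEC-3 and ETEC-6, at 1.93 to 5.1 FPKM, and no PET library was above 0.373. It was lower in PET by a log2 fold change of -3.74 against CON and -3.48 against ETEC (edgeR adjusted p = 0.00771 and 0.0097). Of its high libraries, ETEC-1 and ETEC-3 are close to sums that include ETEC-6. CON-1, CON-2 and CON-3 are close to sums that include CON-5 or CON-6. Over the 14 libraries neither call passed (edgeR adjusted p = 0.178 and 0.203, DESeq2 adjusted p = 0.0845 and 0.127). The Pol-like N2392 (chromosome 23, 27149931 to 27157705), which is 7775 bases long, was lower in both challenged groups, with 0.0395 through 0.652 to 4.17 FPKM in CON, 0.0189 through 0.0619 to 0.173 in ETEC and 0.0168 through 0.0231 to 0.283 in PET. The log2 fold changes were -4.03 in ETEC and -3.97 in PET (edgeR adjusted p = 0.00127 and 0.0019), and -3.34 and -3.28 without CON-5; without PET-7 the latter was -4.73. CON-4, CON-7 and CON-8 lay within the ETEC range, at 0.0395 to 0.0682 FPKM. CON-1 and CON-2 are close to sums that include CON-5, so leaving out CON-5 did not remove its part in them.

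Loci lower in PET than in both other groups included 3 without a host protein name. In N151 (chromosome 1, 120295895 to 120297359) the FPKM was 0 through 2.84 to 4.89 in CON, 0 through 2.37 to 5.28 in ETEC and 0 through 0.0331 to 0.515 in PET. Its values against ETEC and CON were -4.25 and -4.34 (edgeR adjusted p = 0.00448 and 0.00391), and -5.05 and -5.14 without PET-7. The locus N4797, on an unplaced contig, gave -3.95 and -2.78 (edgeR adjusted p = 0.000881 and 0.00371), with 0.66 through 1.54 to 2.95 FPKM in CON, 0.513 through 1.09 to 11.2 in ETEC and 0 through 0.176 to 0.76 in PET. Only PET-5 among the PET libraries reached the CON range there. In N193 (chromosome 1, 150795996 to 150796649) the values were -3.71 and -2.94 (edgeR adjusted p = 0.00581 and 0.0226), and -4.90 and -4.13 without PET-5.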

How the data were processed

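The labels' protocols describe RNA extraction with TRIzol from 24 jejunal samples; the sources used here do not give the aligner, counter, annotation or genome build. The deposited table holds, per the file headers, raw read counts and FPKM per library, and the authors' log2 fold changes and p-values for 3 comparisons, in 639 rows called by the authors at least once. None of its identifiers matched the supplied gene table, so names are those of the file.

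Mapped fragments per library (22640122 to 47301861) and counted lengths were recovered from count and FPKM. The test on the deposited counts used the quasi-likelihood method of edgeR 4.0.16 under R 4.3.3 (all 24 libraries in 1 fit, library sizes from those fragments, filterByExpr, Benjamini-Hochberg adjustment over 577 rows, adjusted p under 0.05), after the code was tested on simulated data. DESeq2 1.42.0 served as an alternative. Its calls over all 24 libraries are given with its own size factors unless stated, and those over the 14 libraries with library sizes from the mapped fragments. Fold changes are log2 with their standard errors, and precision is that of 8 libraries per group. A library was called close to a sum when 2 other libraries added in fitted proportions left a residual under 0.8 of that left by the best single library, in a fit over 510 rows. Protein kinds were assigned by keywords in the authors' match columns.

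The loci, lists and tests were chosen with earlier results of these data known. Named loci were, per comparison, the 6 largest rises and 6 largest falls among called loci with at least 0.5 FPKM in the higher group, the 6 most abundant, those at 0 in all 8 libraries of 1 group with at least 10 counts in 6 of another, the longest and shortest, and members of the largest runs under 50 kb apart. The other loci named (beside genes, with a host protein match, or in on/off sets) were chosen after their values were seen. Alternatives were other scalings and filters, DESeq2, fewer groups, a replicate block, a 2-fold minimum, leaving out each library, and leaving out the libraries close to a sum. The 17 unannotated rows on X or Y were not used here.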

Additional observations from a re-analysis of the deposited data

Results flagged for a closer look

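Single libraries stood far above the other 7 of their group in 17 of 114 group values of named loci, by Dixon's criterion for 8 samples; chance flags about 1 in 20 groups. Loci of 1 run share their libraries and are not separate cases.

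PET-5 accounted for 10 of the 17. In the NAALADL1-like run it held 225.9 FPKM of N3249 (next highest 17.4), 169 of N3251 (next 20.1) and 993.5 of N3252 (next 127). For the other loci of that run it held 2.84 FPKM of N3250 (next 0.344), 113 of N3253 (next 16.1), 4.00 of N3254 (next 0.612) and 3.39 of N3256 (next 0.54). Away from the run it held 6.62 FPKM of N2260 (next 1.36), 0.76 of N4797 (next 0.264) and 0.3615 of N193 (next 0.1).

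CON-5 was highest for N2799 at 1.19 FPKM (next 0.529), N193 at 1.41 (next 0.705), N2392 at 4.17 (next 1.81) and N3372 at 136 (next 97.7). The remaining 3 values were 0.0926 FPKM of N2260 in ETEC-5 (all others 0), 0.173 of N2392 in ETEC-7 (next 0.0876) and 0.402 of N4284 in PET-4 (next 0.157). CON-5 and PET-5 also held the highest FABP6 of their groups, 849 FPKM (next 480) and 51.3 FPKM (next 5.08). A link between this ileal marker and the flagged values was not tested.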

How the results depend on the processing

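Without the 10 sum-like libraries, 0, 0 and 2 loci passed in edgeR (ETEC vs CON, PET vs ETEC, PET vs CON), and 79, 51 and 83 had an unadjusted p under 0.05. In those 14 libraries DESeq2, an alternative chosen after seeing the data, called 43, 27 and 50. Fitting only the groups compared gave 62 loci in PET vs CON, where 172 were tested. With the replicate number as a block, PET vs ETEC gave 56 calls; the same number did not pair the libraries, as 8 of 24 pairs correlated above 0.1 (from -0.38 to 0.64) and 7 of 24 libraries correlated best with their own number. Leaving out each library gave 144 to 171, 71 to 95 and 104 to 140 calls. Loci without a detected library numbered 38, 15 and 12 in CON, ETEC and PET when detection needed 5 counts, and 49, 25 and 22 when it needed 10. Of 143 calls of named loci, none reversed and 124 held with every single library left out. Since 10 libraries are close to a sum of 2 others, leaving out 1 library does not remove what they share with it. That check therefore cannot tell whether a call rests on 1 library counted more than once. With TMM scaling 17 of 141 were lost, and over the 14 libraries 134 of 135 with edgeR and 82 of 141 with DESeq2. Over all 24 libraries DESeq2 kept all 143 with library sizes from the mapped fragments, and lost 9 with its own size factors. The causes were not tested. Loci with few counts are limited by depth.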
